A study of Rattus norvegicus with 16 samples.

Results

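Soleus muscle of trained rats was compared between 2 lines bred for opposite running ability, high capacity runners (HCR) and low capacity runners (LCR). The 8 arrays whose titles name a trained rat's soleus were used, 4 HCR and 4 LCR, of 16 arrays in all; the other 8 came from sedentary rats of the same lines, 4 of each. Both lines descend from N:NIH stock, and in each generation breeders were chosen by a treadmill running test at 11 weeks of age. All rats were females of generation 16, killed at about 7 months of age. Trained rats of both lines ran uphill at 25 degrees for 1.5 hours per session, 5 days per week for 8 weeks, in intervals of 8 minutes at 85 to 90% of maximal oxygen uptake with 2 minutes of recovery at 50 to 60%, and were killed 48 hours after their final run. Training intensity was set to each rat's own maximal oxygen uptake, so HCR and LCR rats were matched in relative work. The labels name 1 muscle per rat and describe no transgene, drug or diet. Each line is 1 breeding population, so selection for running and chance drift between the lines cannot be told apart.

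The soleus is a postural hindlimb muscle built mainly of slow fibres, which contract with the beta (slow) myosin heavy chain Myh7 and rely on mitochondrial respiration. Fast fibres use other myosin heavy chains, of which Myh2, Myh1 and Myh4 encode the IIA, IIX and IIB isoforms, and IIB fibres are usually scarce in this muscle. Endurance training is known to act on mitochondria, capillaries, substrate transport and the connective tissue that holds fibres together, and the comparison asks how muscle RNA differed between the lines once both had trained.

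RNA from 20 mg of muscle was hybridised to Affymetrix rat arrays, 1 array per rat, and each value is the deposited log2 level of 1 probe set, a group of short probes for 1 transcript. After 57 control probe sets were left out, 31042 remained, of which 20826 carry 1 gene symbol, covering 14217 genes. Pairs of trained arrays correlated at 0.951 to 0.996 over all probe sets and none were identical. The slow myosin Myh7 stood at 14.27 to 14.52 in 7 of the 8 trained arrays, among the highest values measured, and at 12.05 in HCR trained 3. That array stands apart: the mean of 15 slow fibre genes, each taken relative to its own mean over the 16 arrays, was -2.14 there and 0.17 to 0.23 in the other HCR trained arrays, and the corresponding mean of 17 fast fibre genes was 2.05. Some control probe sets also differed between the groups. The beta-actin index, the log2 level at the 3′ end of the beta-actin transcript minus that at its middle, was 1.57, 2.37, 1.70 and 1.97 in HCR and 1.33, 1.06, 1.36 and 1.33 in LCR (exact permutation test, two-sided, p = 0.0286, the smallest that 4 against 4 allows; adjusted over 5 array measures, 0.0476). Polyadenylated spike-in controls averaged 7.29 ± 0.29 (SD, n = 4) in HCR and 6.78 ± 0.12 in LCR (exact permutation p = 0.0286, adjusted 0.0476). These indices move with the line difference, and their part in the results was not tested beyond a fit with the beta-actin index added. Among the sedentary arrays, HCR sedentary 2 stands apart, with a beta-actin index of 0.38 and a matrix gene mean of 1.53. In the fit of group means it enters the trained comparison only through the pooled spread. In the fit with the beta-actin index, made on all 16 arrays, it also bears on the slope of that index. No such fit was run without HCR sedentary 2. In whole muscle, fewer cells of a type and less RNA per cell cannot be told apart.

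**Figure D1:**
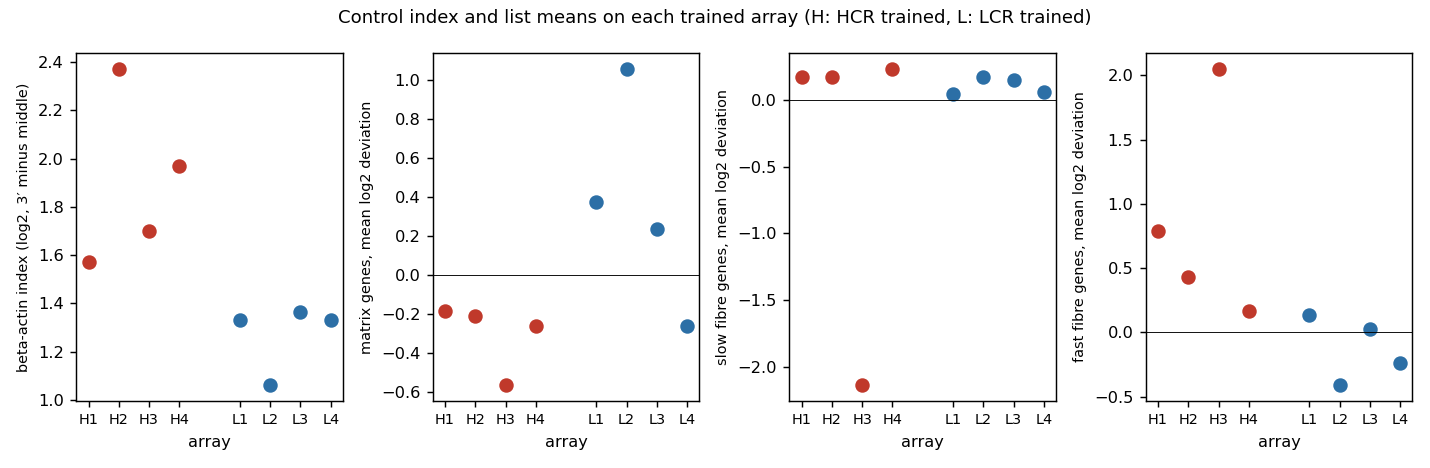
Beta-actin index (log2) and the mean log2 deviation of matrix, slow fibre and fast fibre genes from each gene's 16-array mean, 1 point per trained array. The index is 1.57 to 2.37 in HCR and 1.06 to 1.36 in LCR, and HCR trained 3 lies alone at -2.14 for slow fibre genes.

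After training, 116 of 31042 probe sets (0.374%) differed between the lines at an adjusted p under 0.05 (limma, Benjamini-Hochberg over all probe sets). Of these, 61 were higher in HCR (0.197%) and 55 were lower (0.177%). Probe sets lower in HCR differed by more: the median log2 difference was -0.88 among them against 0.48 among those higher, and 20 of 55 differed at least 2-fold against 5 of 61. Genes could be named for 77 of the 116, which cover 75 genes, 38 higher and 37 lower. Among genes with a symbol, the largest changes were of the IIB myosin Myh4, higher in HCR, and of the class II antigen presentation gene RT1-Ba, lower in HCR. At an unadjusted p under 0.05 the count was 6109 (3564 higher and 2545 lower). The HCR and LCR values did not overlap for any of the 116, as for 7.61% of all probe sets in the higher direction and 6% in the lower.

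How many probe sets pass depends on single arrays. The count was 229 without HCR trained 1 and 255 without HCR trained 3, but 9 to 21 when any 1 of the other 6 trained arrays was left out, 651 without HCR sedentary 2, and 5 when the beta-actin index was added to the model.

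**Figure D2:**
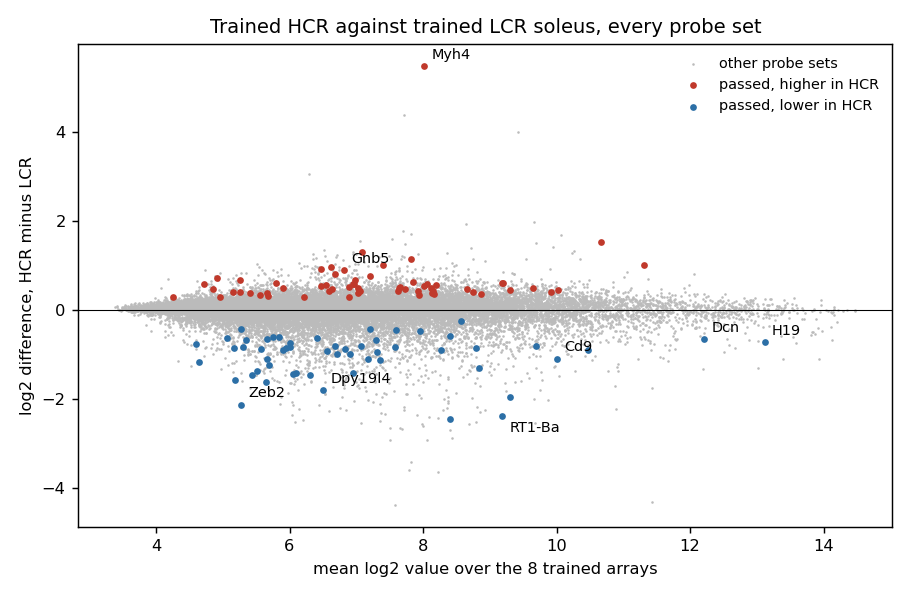
Log2 difference, HCR trained minus LCR trained (vertical), against mean log2 value over the 8 trained arrays (horizontal), 1 point per probe set. The 61 coloured points above 0 and 55 below 0 passed an adjusted p of 0.05, with Myh4 highest at 5.48.

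Among genes with a symbol, Myh4 and RT1-Ba moved furthest in each direction, so the 250 bases before the start of each gene are shown, both found in RefSeq (build GRCr8, plus strand of the chromosome, both genes transcribed from it). The first is Myh4, chr10:52421898-52422147, with capitals at TATAAA (or TTTATA on the other strand) and at the E-box CANNTG, the motif of myogenic basic helix-loop-helix factors. The second is RT1-Ba, chr20:4576807-4577056, with capitals at TGACGTCA, the cyclic AMP response element, and at ATTGG, which is CCAAT on the other strand.
Myh4: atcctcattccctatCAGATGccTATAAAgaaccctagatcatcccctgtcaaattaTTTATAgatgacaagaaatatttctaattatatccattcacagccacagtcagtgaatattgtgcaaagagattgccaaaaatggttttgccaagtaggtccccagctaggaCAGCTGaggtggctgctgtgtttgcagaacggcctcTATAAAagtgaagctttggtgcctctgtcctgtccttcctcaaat
RT1-Ba: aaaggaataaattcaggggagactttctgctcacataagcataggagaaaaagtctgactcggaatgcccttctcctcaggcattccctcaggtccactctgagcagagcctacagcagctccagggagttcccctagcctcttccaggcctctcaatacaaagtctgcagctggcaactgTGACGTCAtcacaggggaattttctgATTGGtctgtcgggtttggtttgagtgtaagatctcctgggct
The Myh4 stretch holds TATAAA at 3 places and CANNTG at 2, and no MEF2-type motif, the element of another family of muscle transcription factors. Searched on both strands over the same window of 33469 rat promoters, TATAAA occurs in 12.9%, CANNTG in 65.5% and the MEF2-type motif in 3.41%. The RT1-Ba stretch holds TGACGTCA once, as 1.59% of promoters do, and CCAAT once, as 34% do; its CANNTG matches are not capitalised. These matches describe the letters only.

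Among fast fibre genes, Myh4 was 44.8-fold higher in trained HCR than in trained LCR soleus. Its log2 value was 11.08, 8.43, 13.57 and 9.98 in HCR and 5.53, 5.80, 4.84 and 4.95 in LCR, a difference of 5.48 (SE 0.87, adjusted p = 0.0281). All 4 HCR arrays lay above all LCR arrays, HCR trained 3 was the highest, and 3 of the 4 LCR values were below 5.61, the level under which a probe set was counted as dim, so the LCR level is near the array's lower end. Without HCR trained 3 the difference was 4.55 (adjusted p = 0.0188), and Myh4 passed in 3 of the 8 fits that leave out 1 trained array.

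For 3 other fast fibre genes of the 17 measured, HCR values lay wholly above LCR values, as for 8.9% of all genes, but the genes did not pass. Parvalbumin (Pvalb), a calcium buffer of the fastest fibres, stood at 8.94, 9.08, 13.80 and 7.82 in HCR and at 6.10, 5.37, 5.28 and 5.38 in LCR (difference 4.38, SE 0.91, adjusted p = 0.0547; 3.08 and 0.0127 without HCR trained 3). Actn3, the Z-disc alpha-actinin of fast fibres, stood at 10.76, 11.10, 14.27 and 9.53 against 8.48, 7.19, 8.23 and 5.80 (3.99, SE 0.92, adjusted p = 0.0606). Casq1, the calcium store protein of fast fibres, differed by 0.23 (adjusted p = 0.218). For Pvalb, Actn3 and Casq1, HCR trained 3 was the highest array, and the other 3 HCR arrays also lay above every LCR array.

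The remaining myosins gave no call. The IIA gene Myh2 differed by -0.22 (adjusted p = 0.439), and the 5 probe sets of the IIX gene Myh1 by -0.72 to 0.19. The 2 probe sets of slow Myh7 disagreed in size: the brighter differed by -0.69 (adjusted p = 0.323) and by -0.11 without HCR trained 3, while the other stood at 12.05, 6.07, 7.48 and 11.46 in HCR and 13.70, 13.85, 13.64 and 13.15 in LCR (-4.32, adjusted p = 0.0818). On that second probe set HCR trained 2 was the lowest array, although it was close to the others on the first. Of 17 fast fibre genes measured, 11 had a positive difference (median 0.22, or 0.02 without HCR trained 3) and Myh4 alone passed. Of 15 slow fibre genes, 13 had a negative difference and none passed. The median of -0.58 became 0.04 without HCR trained 3, with 10 of the 15 positive. At an unadjusted p under 0.05, 2 were higher (13.3%) and 0 lower, against 12.9% and 5.13% of all genes.

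Apart from Myh4, the 15 named genes with the largest rises differed by less than 2-fold. Gnb5, the beta-5 subunit of G proteins that pairs with RGS proteins, stood at 7.16, 7.11, 7.31 and 7.50 in HCR and 6.32, 6.30, 6.33 and 6.55 in LCR, 1.86-fold higher (log2 difference 0.89, SE 0.16, adjusted p = 0.0373). The lowest HCR array lay above the highest LCR array, which was LCR trained 4. Dok5, an adaptor protein downstream of receptor tyrosine kinases, was 1.49-fold higher, with HCR at 7.20 to 7.28 and LCR at 6.46 to 6.94 (0.58, SE 0.11, adjusted p = 0.0391), and Gab1, a docking protein of the same receptors, was 1.39-fold higher (0.48, SE 0.09, adjusted p = 0.0391). The HCR minus LCR difference for Dok5 in sedentary rats was 0.39 (adjusted p = 0.44) and for Gab1 -0.14.

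Other signalling and lipid genes were higher as well. Pip4k2c, a phosphoinositide kinase, differed by 0.48 (adjusted p = 0.0391), and Plekha8, a glycolipid transfer protein of the Golgi, by 0.47 (adjusted p = 0.039). Ppp2r5c, a regulatory subunit of protein phosphatase 2A, was higher by 0.50 (adjusted p = 0.0391) on 1 of its 3 probe sets. The 2 other probe sets of Ppp2r5c gave differences in the opposite direction, 1 of them at an unadjusted p under 0.05.

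A number of the higher genes act in the nucleus or in amino acid metabolism. Phc1, a subunit of Polycomb repressive complex 1, stood at 7.43, 7.35, 8.10 and 7.47 in HCR and 6.90, 6.62, 6.81 and 6.93 in LCR, 1.71-fold higher (0.77, SE 0.15, adjusted p = 0.0476; 0.60 and 0.0396 without HCR trained 3, its highest array). Ring1, another subunit of that complex, was higher by 0.38 (adjusted p = 0.0391), whereas Rnf2, its alternative ubiquitin ligase subunit, was lower by 0.59 on the log2 scale (difference -0.59, adjusted p = 0.0373); both were singled out after their values were seen. Orc4, part of the origin recognition complex of DNA replication, was higher by 0.49 (adjusted p = 0.0324), with HCR at 7.79 to 7.97 and LCR at 7.28 to 7.46. Yeats4, a reader of acylated histones, was higher by 0.48 (adjusted p = 0.0391).

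Cbs, which starts the conversion of homocysteine to cysteine, stood at 6.21, 6.26, 6.04 and 6.05 in HCR and 5.77, 5.51, 5.64 and 5.71 in LCR (0.48, SE 0.08, 1.40-fold, adjusted p = 0.0324). Mri1, an enzyme of methionine salvage, was higher by 0.51 (adjusted p = 0.0391), and Slc18b1, a vesicular polyamine transporter, by 0.53 (adjusted p = 0.0496). For each of these 3 genes the lowest HCR array lay above the highest LCR array. The RNA-binding protein Rbpms2 (0.67, adjusted p = 0.0468) and Cuedc2 (0.57, adjusted p = 0.0493; 0.52 and 0.0565 without HCR trained 3) complete the 15 largest named rises. Other probe sets of Dok5, Orc4, Yeats4, Rbpms2, Plekha8 and Ring1 differed by 0.02 to 0.19, and none of them passed.

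Among genes with a symbol that were lower in HCR, RT1-Ba had the largest difference. RT1-Ba encodes the alpha chain of a rat class II major histocompatibility complex molecule, which presents peptides to helper T cells. It stood at 7.85, 8.18, 8.09 and 7.83 in HCR and 9.82, 11.15, 10.05 and 10.49 in LCR, 5.26-fold lower in HCR (-2.39, SE 0.41, adjusted p = 0.0341). A second probe set of RT1-Ba was 3.90-fold lower (-1.96, SE 0.34, adjusted p = 0.0341), while 2 more gave -0.13 and 0.68. On both that passed, the highest HCR array was more than 1 log2 unit below the lowest LCR array. In sedentary rats the first probe set differed by -0.53 (adjusted p = 0.712), with HCR at 7.83 to 8.31 and LCR at 7.52 to 9.57.

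Of 16 genes of antigen presentation, 13 had a negative difference (median -0.26) and RT1-Ba alone passed. Values lay wholly higher in HCR for 2 of the 16 (12.5%) and wholly lower for 1 (6.25%), against 8.9% and 3.52% of all genes. The other class II chains RT1-Bb, RT1-Da and RT1-Db1 differed by -0.71, -0.66 and -0.62 and the class I gene RT1-CE16 by -1.06, with adjusted p of 0.113 to 0.46. These class I and class II genes were singled out after their values were seen. Fgl2, a fibrinogen-like protein made by immune and other cells, was lower by 1.38 on the log2 scale (difference -1.38, SE 0.26, adjusted p = 0.0391). Its HCR values there, 4.46 to 5.16, were all below the dim level. The 3 other Fgl2 probe sets differed by -1.65, -0.45 and -0.16 without passing, the last being the brightest (adjusted p = 0.658). Beside these, 19 of 25 macrophage and leukocyte markers had a negative difference (median -0.38, and 0.00 with the beta-actin covariate), none passed, and the list's mean deviation was -0.52 to 0.01 in HCR and -0.02 to 0.42 in LCR. Their part in the RT1-Ba and Fgl2 differences was not tested.

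Zeb2, a zinc finger repressor of transcription, stood at 4.28, 4.02, 4.52 and 4.04 in HCR and 6.65, 7.03, 5.91 and 5.80 in LCR (-2.13, SE 0.39, 4.39-fold lower, adjusted p = 0.0391). The HCR values were all below the dim level, and 4 other Zeb2 probe sets differed by -0.45 to 0.00. Tbl1xr1, a subunit of the nuclear receptor corepressor complex, was lower by 1.62 on the log2 scale (difference -1.62, adjusted p = 0.0391) on 1 probe set, with HCR at 4.67 to 5.06, and its 4 others differed by -0.15 to 0.23. The splicing regulator Rbm5 was 2.78-fold lower (-1.47, adjusted p = 0.0391), also from dim HCR values of 4.25 to 5.18, and its 2 brighter probe sets differed by -1.45 (adjusted p = 0.0831) and -0.12 (adjusted p = 0.453). Values this low limit what the size of a fold can show.

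Dpy19l4, a member of a family of membrane glycosyltransferases, was the named gene whose call depended least on single arrays. It stood at 5.73, 5.64, 5.39 and 5.64 in HCR and 7.52, 7.58, 7.36 and 7.20 in LCR (-1.81, SE 0.24, 3.51-fold lower, adjusted p = 0.00818). It passed in all 8 fits that leave out 1 trained array and in 18 of 19 alternatives, and no other named gene passed in all 8. The alternative in which Dpy19l4 did not pass was the beta-actin covariate (difference -1.72, adjusted p = 0.125). The difference in sedentary rats was -0.78 (adjusted p = 0.503), with HCR at 6.03 to 6.82 and LCR at 6.51 to 7.86.

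Cd9, a tetraspanin of the cell surface, stood at 9.81, 9.49, 9.12 and 9.40 in HCR and 10.32, 10.57, 10.35 and 10.98 in LCR (-1.10, SE 0.18, 2.14-fold lower, adjusted p = 0.0341). Ehd4, which acts in endocytic recycling, was 2.48-fold lower (-1.31, adjusted p = 0.0391; -1.25 and 0.0523 without HCR trained 3). Rgs4, a GTPase activator that ends G protein signals, was 2.00-fold lower (-1.0, adjusted p = 0.0391), and the membrane scaffold Nherf2 was 1.95-fold lower (-0.96, adjusted p = 0.0391). A brighter probe set differed by -0.06 for Rgs4 (adjusted p = 0.803) and by -0.13 for Nherf2 (adjusted p = 0.491), and the other probe sets of Ehd4 by -0.36 and -0.59 without passing. Nherf2 was even among LCR rats, at 7.78 to 7.82, and wider among HCR rats, at 6.33 to 7.06, with HCR trained 2 the lowest.

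Pmp22, a membrane protein best known from peripheral myelin, stood at 7.87, 7.70, 8.01 and 7.70 in HCR and 8.95, 8.80, 8.55 and 8.56 in LCR (-0.90, SE 0.15, 1.86-fold lower, adjusted p = 0.0341), while its brighter probe set differed by 0.02 (adjusted p = 0.965). Of 14 Schwann cell and nerve markers, 10 had a positive difference (median 0.11) and none passed on its brightest probe set. With each gene taken at its probe set of smallest p, the rest of the 15 largest falls were C11h21orf91 (-1.46), the RNA-binding protein Nufip2 (-0.99), Crebl2 (-0.92) and LOC100912031 (-0.90), with adjusted p of 0.0373 to 0.0391. Other probe sets differed by -0.10 for C11h21orf91, by -0.07, -0.01 and 0.28 for Nufip2 and by -1.11 for LOC100912031, and none of these passed. On the LOC100912031 probe set that passed, the HCR values of 5.38 to 5.50 were below the dim level. The 1 other probe set of Crebl2 went the opposite way at an unadjusted p under 0.05.

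**Figure D3:**
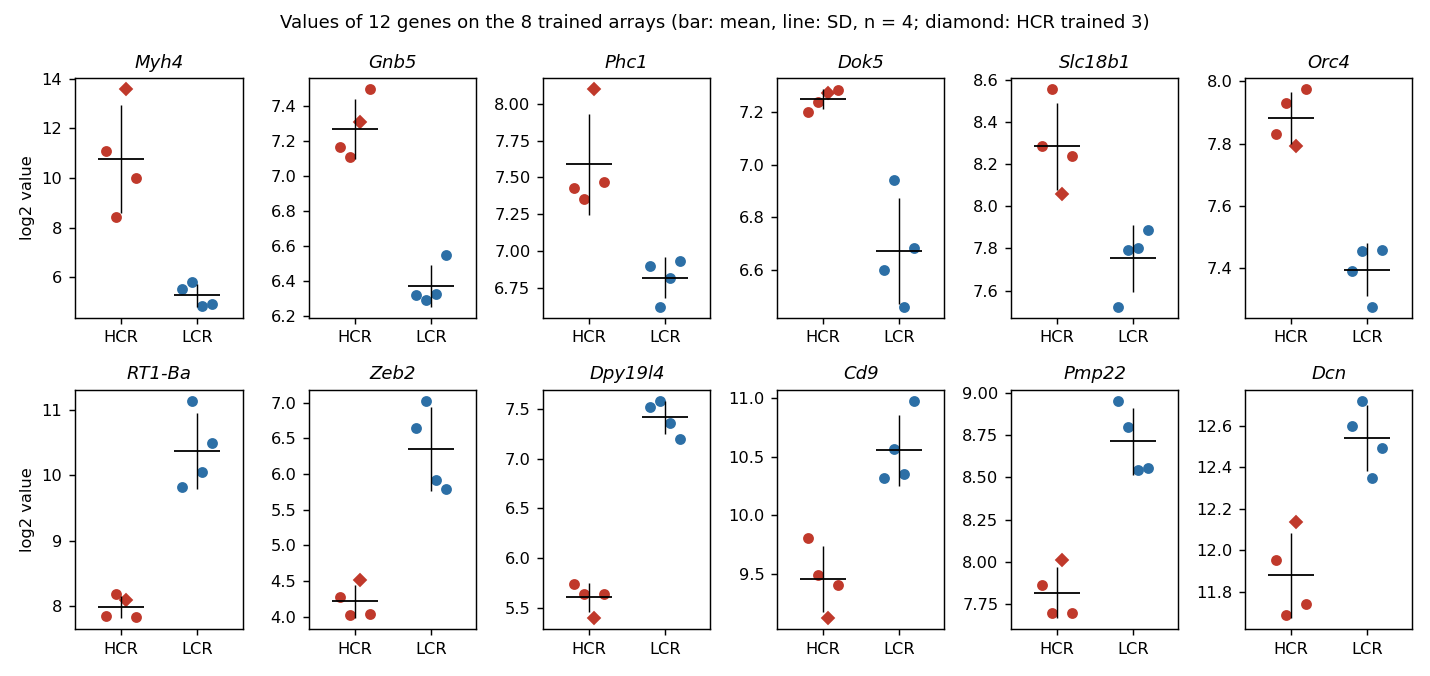
Log2 values of 12 genes on the 8 trained arrays, HCR (red) and LCR (blue), with the mean (bar), SD (line, n = 4) and HCR trained 3 as a diamond; each panel has its own axis. In every panel the 4 HCR values lie apart from the 4 LCR values, from 1.40-fold for Orc4 to 44.8-fold for Myh4.

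Most matrix genes had a negative difference in trained HCR, and 1 of them passed. Decorin (Dcn), a small proteoglycan that binds collagen fibrils, stood at 11.95, 11.69, 12.13 and 11.74 in HCR and 12.60, 12.72, 12.35 and 12.49 in LCR (-0.66, SE 0.13, 1.58-fold lower, adjusted p = 0.0391). Of 40 extracellular matrix genes, 37 had a negative difference, with a median of -0.64, and only Dcn passed. At an unadjusted p under 0.05, 14 were lower, against 5.13% of all genes, and the values of 5 did not overlap, against 3.52% of all genes. The collagens Col1a1, Col3a1 and Col1a2 differed by -1.30, -1.16 and -1.11 (adjusted p 0.202, 0.163 and 0.203). Periostin (Postn), a matrix protein of remodelling tissue, differed by -2.29 (SE 1.0, adjusted p = 0.223), the lowest of the list. Postn and these collagens were singled out after their values were seen. The mean over the list was -0.57 to -0.19 in HCR and -0.26, 0.24, 0.38 and 1.06 in LCR, so the groups overlapped and LCR trained 2 was the highest; without it the median was -0.38, and with the beta-actin covariate it was -0.10.

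Matrix and growth genes outside that list also passed, and were singled out after their values were seen. Gas6, a secreted ligand of the TAM receptor tyrosine kinases, stood at 8.47, 8.22, 8.39 and 8.35 in HCR and 9.30, 8.99, 9.35 and 9.26 in LCR (-0.87, SE 0.13, adjusted p = 0.0138), while its brighter probe set differed by -0.34 (adjusted p = 0.443) and another by -0.08 (adjusted p = 0.621). The matrix protein fibulin-2 (Fbln2) was lower by 0.81 on the log2 scale (difference -0.81, adjusted p = 0.0341), and the imprinted noncoding RNA H19 stood at 12.64 to 13.05 in HCR against 13.33 to 13.66 in LCR (-0.73, adjusted p = 0.0307). Igf1, the growth factor, passed on 1 probe set (-0.84, adjusted p = 0.0478), and its brighter one, at -0.89, did not (adjusted p = 0.0606). Fibroblast markers moved with these genes: 12 of 13 had a negative difference (median -0.46), and Dcn, which is also on that list, alone passed. Whether cell content bears on the matrix differences was not tested.

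The metabolic lists had medians near that of all genes, but several of these turned with the model or with 1 array. Over the brightest probe set of each of 14217 genes the median difference was 0.05, 9142 genes (64.3%) had a positive difference, and 31 passed higher (0.218%) and 16 lower (0.113%). Respiratory complex I (23 of 34 genes positive, median 0.05), complexes II to IV (21 of 32, 0.04), ATP synthase (6 of 14, -0.01), the citric acid cycle (15 of 23, 0.07), fatty acid oxidation (17 of 26, 0.06), fatty acid uptake and storage (13 of 20, 0.10), cholesterol synthesis (12 of 18, 0.04), glycolysis (20 of 26, 0.10), amino acid breakdown (18 of 25, 0.09), mitochondrial import (21 of 29, 0.07) and regulators of mitochondrial biogenesis (14 of 27, 0.01) held no gene that passed. With the beta-actin covariate the median was -0.38 for fatty acid oxidation (3 of 26 positive), -0.11 for complex I (3 of 34), -0.14 for complexes II to IV (4 of 32) and -0.12 for ATP synthase (0 of 14), while that of all genes was 0.02. Medians turned negative there for the citric acid cycle, fatty acid uptake, amino acid breakdown, mitochondrial import and the biogenesis regulators too. Without HCR trained 3 the median was 0.23 for fatty acid oxidation and 0.00068 for glycolysis (14 of 26 positive), and without HCR trained 1 it was -0.015 for fatty acid oxidation.

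Single metabolic genes came close to the threshold or varied between probe sets. Hexokinase 2 (Hk2), which traps glucose in the cell, stood at 6.56, 5.71, 6.74 and 6.33 in HCR and 7.81, 7.36, 7.68 and 7.43 in LCR (-1.24, SE 0.32, adjusted p = 0.0766). Acsf2, an acyl-CoA synthetase, differed by -1.09 in trained (adjusted p = 0.0771) and by -1.75 in sedentary rats. Sc5d, a late enzyme of cholesterol synthesis, differed by 0.70 (adjusted p = 0.0502). Values for Hk2, Acsf2 and Sc5d did not overlap between the lines, as for 3.52% of all genes in the lower direction and 8.9% in the higher. Cox7a1, the muscle form of a cytochrome oxidase subunit, differed by 0.40 (adjusted p = 0.326), the glucose transporter Slc2a4 by 0.04 and -0.59 on its 2 probe sets, citrate synthase (Cs) by -0.33 to 0.41 on 4, and the angiogenic factor Vegfa by -0.93 (adjusted p = 0.101) and -0.01 on 2.

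For the mitochondrial ribosome, 59 of 73 genes had a positive difference (median 0.15), with values apart for 17 higher and 2 lower, against 8.9% of all genes apart higher and 3.52% lower. None of them passed; Mrps2 came nearest (0.44, SE 0.11, adjusted p = 0.0771), and the median was -0.03 with the beta-actin covariate. Calcium handling genes had a median of 0.19, with 23 of 34 positive. Among them, Nfatc3, a calcineurin-regulated transcription factor, ranged from 9.02 to 9.23 in HCR against 8.74 to 8.82 in LCR (0.36, adjusted p = 0.0594), and Rcan1, an inhibitor of calcineurin, at 8.40 to 11.04 against 11.48 to 11.92 (-1.72, adjusted p = 0.0697; -1.17 without HCR trained 3, its lowest array). Neither passed. The values of Nfatc3 and of Rcan1 did not overlap between the lines, as for 8.9% of all genes in the higher direction and 3.52% in the lower.

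Lists of protein and RNA handling leaned the other way. Of 28 heat shock and chaperone genes, 27 had a negative difference (median -0.26), with the small heat shock protein Hspb1 at -0.52 (adjusted p = 0.13); without HCR trained 3 the median was -0.17. The spliceosome (32 of 46 negative, median -0.14), the cytosolic ribosome (33 of 42, -0.10) and the proteasome (21 of 31, -0.09) also had negative medians, and translation factors (18 of 34, -0.01), antioxidant defence (16 of 30, -0.02) and protein breakdown and autophagy (13 of 28, 0.04) lay nearer to 0. No gene of these 7 lists passed. With the beta-actin covariate the medians of the cytosolic ribosome and the proteasome were 0.02 and 0.06.

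Regulatory lists showed no common direction. Insulin and growth signalling (median -0.01), the VEGF and hypoxia system (0.01), clock genes (0.00), immediate early genes (-0.08) and the interferon response (0.05) held no gene that passed on its brightest probe set. The transcription factor Jun differed by -0.77 (adjusted p = 0.0687) and Foxo1, which drives muscle protein breakdown genes, by -1.19 (adjusted p = 0.0877). Among cell type markers, 10 of 12 adipocyte genes had a positive difference (median 0.60, and 0.97 without HCR trained 3); the list mean was 1.29, -0.31, -0.95 and 1.16 in HCR and -0.51 to 0.15 in LCR, so 2 HCR arrays were high and 2 were not. Medians were -0.06 for endothelial, -0.11 for smooth muscle and pericyte, -0.05 for blood cell, -0.28 for satellite cell, -0.04 for proliferation and -0.11 for neuromuscular junction genes, and none of these genes passed. Without HCR trained 3 the medians of the endothelial, smooth muscle and neuromuscular junction genes were 0.06, 0.00 and 0.01.

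**Figure D4:**
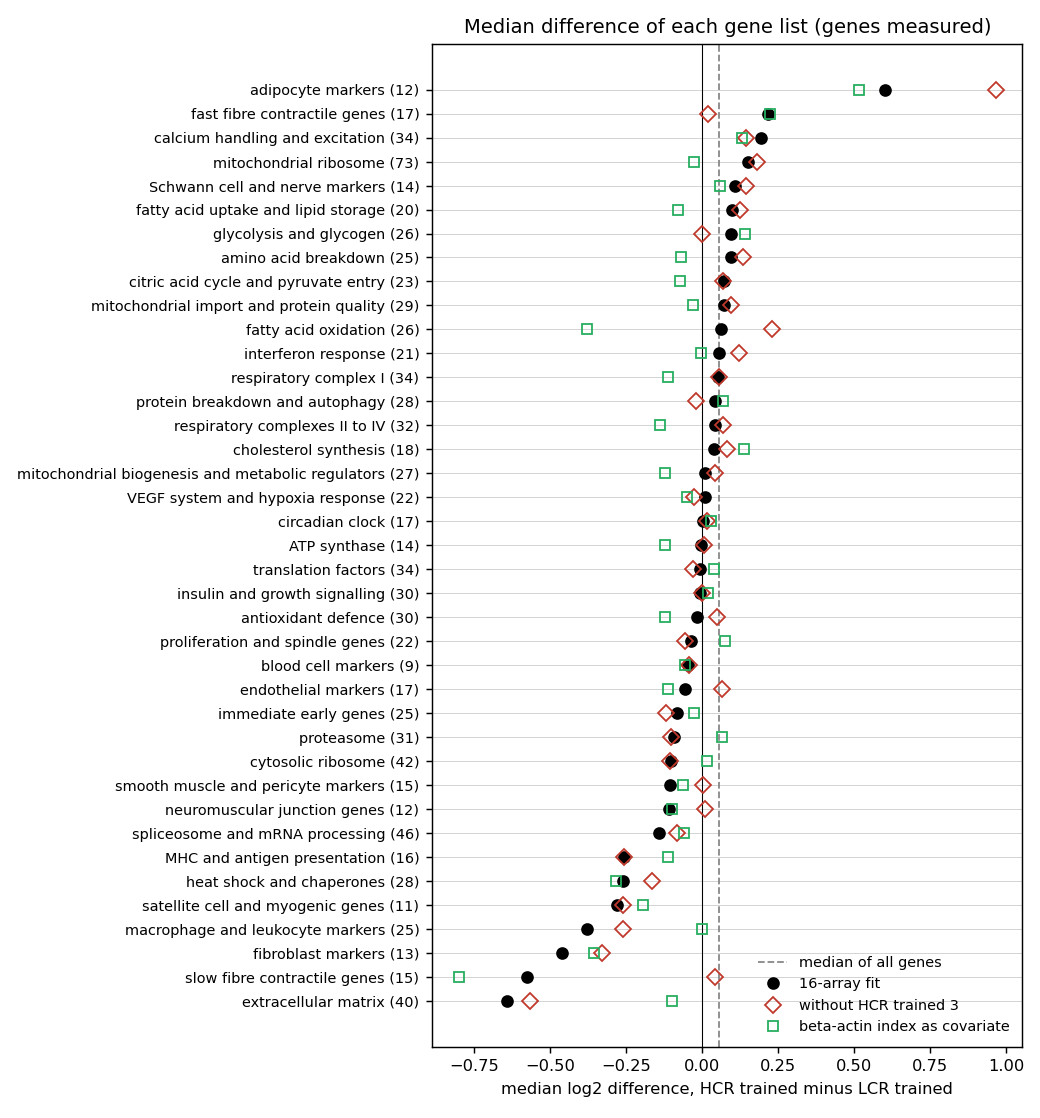
Median log2 difference, HCR trained minus LCR trained, of each of 39 gene lists (genes measured in brackets) in the fit of 16 arrays, without HCR trained 3, and with the beta-actin covariate; the dashed line is the median of all genes, 0.05. Extracellular matrix (-0.64) and slow fibre genes (-0.58) lie lowest, and the latter moves to 0.04 without HCR trained 3.

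Between sedentary rats of the same lines, 3 probe sets (0.00966%) differed. The 8 sedentary arrays are not among the trained ones, but both contrasts use the spread pooled over all 16. Of the 116 that passed in trained rats, 44 (37.9%) had the same sign in sedentary rats, against 44.3% of all probe sets, and 1 passed in both. Without HCR sedentary 2, 1 probe set passed in sedentary rats and 52 of the 116 (44.8%) had the same sign, against 48.2% of all. The Myh4 value was 4.76 to 8.03 in sedentary HCR and 4.83 to 5.13 in sedentary LCR (difference 0.66, adjusted p = 0.845), and Cd9 and Dcn differed by 0.05 and 0.13 there. The difference between the trained and the sedentary contrast, an interaction term in the same model, passed for no probe set (0 of 31042, smallest adjusted p 0.0801; 5673 at an unadjusted p under 0.05). Without HCR trained 3, 24 probe sets passed that test. It was 4.83 for Myh4 (adjusted p = 0.11), -1.15 for Cd9 and -0.80 for Dcn (both 0.0983), so these differences are not shown to depend on training.

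A small set of probe sets did not depend on any 1 trained array. Besides Dpy19l4, 6 probe sets without a gene symbol passed in all 8 fits that leave out 1 trained array, and all 7 had the same sign in sedentary rats, with and without HCR sedentary 2; they were singled out after their values were seen. The probe set 1371775_at stood at 11.41, 11.43, 11.43 and 11.40 in HCR and 10.04, 9.72, 10.00 and 9.85 in LCR (1.51, SE 0.13, 2.85-fold higher, adjusted p = 0.000371), and its sedentary difference was 0.79. The probe set 1374583_at stood at 6.72, 6.83, 6.28 and 6.67 against 7.65, 7.78, 7.81 and 7.71 (-1.11, SE 0.11, adjusted p = 0.000634) and was the 1 that also passed in sedentary rats (-1.25, adjusted p = 0.000386). Of the 7, 3 passed under all 19 alternatives. With the beta-actin covariate, Dpy19l4, 1380330_at, 1394609_at and 1389369_at did not pass (adjusted p 0.102 to 0.125). The gene that each of the 6 measures was not analysed here.

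**Figure D5:**
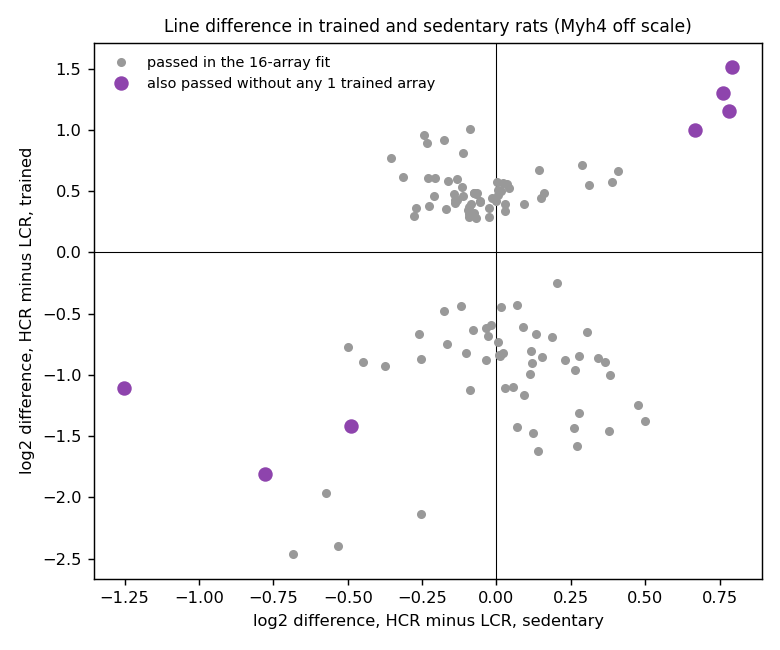
HCR minus LCR log2 difference in trained (vertical) and sedentary rats (horizontal) for the probe sets that passed in trained rats, Myh4 not drawn. The 7 purple points, which passed without any 1 trained array, have the same sign in both, as 44 of all 116 do.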

How the data were processed

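The authors deposited a table of log2 values, 1 row per probe set and 1 column per rat. RMA is listed as a tool per the submitters' processing notes, as is limma; versions and chip definition are not given in the sources used here. RMA usually includes quantile normalization of probes; array medians here are near equal (5.91 to 5.97), and a shift of all RNA would not be seen. Whether the 16 arrays were summarised together is not given in the sources used here. Array number limits the precision.

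Probe sets were named from the platform annotation (20826 with 1 symbol, 436 with several, 9780 with none), and 20758 of the single symbols matched a RefSeq entry. Samples were grouped by their titles. limma 3.58.1 in R 4.3.3 fitted 4 group means to all 16 arrays (12 residual degrees of freedom), with eBayes and Benjamini-Hochberg adjustment over 31042 probe sets, threshold 0.05. The script was tested on simulated data. Dim means under 5.61, the 40th percentile of probe set means. Python 3.11.15 with scipy 1.17.1 made the exact tests.

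Named by rule were the 15 largest rises and falls that passed and were not dim. There each gene was taken at its probe set of smallest p. The rule added up to 4 passing members of each of 39 lists (otherwise the 2 of smallest p) and 24 key genes. Not every gene under the rule is described, among them the key genes Tnnt3, Pdk4, Ucp3, Cd36, Mb, Ldha and Mstn. Genes outside the rule are said to be singled out or picked after their values were seen. Lists use each gene's brightest probe set and are described by counts and medians. The comparison, members and lists were chosen with earlier results of these data known. Alternatives were other normalizations, moderation, array weights, covariates, a replicate block, trained arrays alone, a filter on dim probe sets, and leaving out arrays.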

Additional observations from a re-analysis of the deposited data

Results flagged for a closer look

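In groups of 4 arrays, a highest or lowest value was looked for whose gap to its nearest neighbour, as a share of the group's range, passed Dixon's critical value; 22 of 358 groups had one, where chance gives about 1 in 20, or 17.9. Of these, 9 lay on HCR trained 3, 4 on HCR trained 2, and 0 to 3 on each other trained array.

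HCR trained 3 was far below the other HCR trained arrays for the slow fibre genes Myh7 (1386993_at, 12.05 against 14.27 to 14.46) and Tnnt1 (10.19 against 13.58 to 13.92). It was also far below them for lipoprotein lipase Lpl (10.52 against 12.78 to 12.81) and the heart-type lactate dehydrogenase Ldhb (11.24 against 13.37 to 13.48). It was above them for the fast calsequestrin Casq1 (13.42 against 12.85 to 12.93) and for Phc1 (8.10). Its list means were lowest for slow fibre (-2.14), fibroblast (-0.51) and satellite cell genes (-0.68).

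HCR trained 2 was lowest for Psmd9 (7.84) and the proteasome list mean (-0.27), and highest for Kif11 (5.39) and the proliferation list mean (0.057). LCR trained 4 was highest for Gnb5 (6.55), Cox11 (5.97) and Adrb3 (5.92). LCR trained 1 was highest for Srsf7 (5.71), Pvalb (6.10) and Cs (1369967_at, 10.74). LCR trained 2 was lowest for Ppargc1a (1395518_at, 7.97) and for the beta-actin index (1.06), and LCR trained 3 was highest for the blood cell list mean (0.27).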

How the results depend on the processing

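No direction of a called difference reversed under any of 19 alternatives. For most of them this was fixed beforehand. The HCR and LCR values of the 116 did not overlap, so leaving out or weighting arrays, or changing the moderation, could not have reversed a direction. The count of probe sets that passed, 116, was 836 with trained arrays alone (275 higher, 32.9% against 52.6%), 141 after quantile normalization (80 higher), 121 after median centring (71 higher), 77 without dim probe sets (36 higher), 87 with a variance trend and robust moderation (33 higher), 3525 with array weights (1862 higher), 5 with the beta-actin index and 15 with the GAPDH index as covariate. It ranged from 9 to 255 when 1 trained array was left out, was 651 without HCR sedentary 2, and 1315 without HCR trained 3 and HCR sedentary 2, a setting chosen after seeing the data. Of the 32 named probe sets that passed, 28 and 30 passed without HCR trained 1 and HCR trained 3, and 1 or 2 when any of the other 6 trained arrays was left out. The interaction count, 0, was 1 after quantile normalization, 1 after median centring, 233 with array weights, 24 without HCR trained 3 (range 0 to 24 over single trained arrays) and 22 without both arrays. Replicate numbers did not pair the samples (correlations of same-numbered deviations -0.19 to 0.05), and with the replicate number as a block 25 passed. Why the counts moved was not tested. Signal limits dim probe sets: 9 of the 61 higher and 5 of the 55 lower were dim in both groups.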

Other observations

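Of the 75 genes that passed, 28 have 1 probe set and 47 have more. Among the 27 lower genes with another probe set, 10 had another at an unadjusted p under 0.05 with the same sign and 2 with the opposite sign, and for 6 all others pointed the opposite way. Among the 20 higher genes with another, the counts were 1, 2 and 8. A brighter probe set than the one that passed existed for 21 of the 27 lower and 7 of the 20 higher genes.

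The muscle kinase Speg (0.40, adjusted p = 0.0373) and the kinase Riok3 (0.44, adjusted p = 0.0298) were higher in trained HCR, each on 1 probe set. Other probe sets differed by -0.004 for Speg and by -0.12 and -0.42 for Riok3, and none of these passed. Coq9, needed to make coenzyme Q, was lower by 0.75 on the log2 scale on a probe set with values of 5.44 to 5.84 in HCR and 6.24 to 6.53 in LCR (difference -0.75, adjusted p = 0.0373), and all its other probe sets had the opposite sign. These genes were picked after their values were seen.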
